A study of Homo sapiens with 2 samples.

Results

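The miR-200 family, which includes miR-141 and miR-429, was examined in small RNA libraries of MCF10A cells, a non-tumorigenic human breast epithelial line. Its members were taken by name: every locus of the deposited count table called miR-200a, miR-200b, miR-200c, miR-141 or miR-429, with any arm. These were 5 of the 947 loci in the table, 2 on chromosome 12 (hsa-miR-200c-5p and hsa-miR-141-5p) and 3 on chromosome 1 (miR-200b-5p, miR-200a-5p and miR-429). Cells were given withaferin A, a steroidal lactone made by Withania somnifera, at 2 µM for 24 h, or were left untreated. Each group is 1 sample record whose labels list 3 replicates, so n = 3 libraries per group. Whether these came from separate cultures is not stated, and p-values cover spread between libraries that may be technical repeats. As listed in the labels' protocol, the withaferin A libraries were made with the NEBNext small RNA kit and the untreated libraries with the QIAseq miRNA kit, so the effects of kit and compound cannot be told apart.

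The family is known for holding cells in an epithelial state. Its members repress ZEB1 and ZEB2, transcription factors that shut off epithelial genes such as E-cadherin, and ZEB factors in turn repress both clusters of the family. The 3p arm of each hairpin is the arm usually loaded into Argonaute, the protein that carries the miRNA to its targets, and bases 2 to 8 of that arm, the seed, decide which messenger RNAs it pairs with. Loss of these miRNAs is a textbook feature of the epithelial-mesenchymal transition.

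The mature sequences are shown because the family falls into seed groups that cut across the clusters. They are from RefSeq (GRCh38.p14), written 5′ to 3′ with the seed in capitals.
miR-200c-3p: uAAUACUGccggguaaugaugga
miR-141-3p: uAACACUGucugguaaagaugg
miR-200b-3p: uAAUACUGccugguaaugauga
miR-200a-3p: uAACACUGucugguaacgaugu
miR-429: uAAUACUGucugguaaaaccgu
miR-200c-5p: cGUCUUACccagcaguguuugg
miR-200b-5p: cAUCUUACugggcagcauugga
miR-200a-5p: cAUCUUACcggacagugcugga

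The seed AAUACUG was shared by miR-200c-3p, miR-200b-3p and miR-429, and by no other of the 2370 human mature miRNAs in the RefSeq table. The seed AACACUG was shared by miR-141-3p and miR-200a-3p alone in that table. Each cluster thus holds both seeds. Counting positions from 1 at the 5′ end, miR-200c-3p and miR-200b-3p differed over 22 positions by G11U and G22A, outside the seed. miR-141-3p and miR-200a-3p differed by A17C and G22U, also outside it. Within a cluster the seeds differed at 1 base, U4C from miR-200c-3p to miR-141-3p and from miR-200b-3p to miR-200a-3p. The 5p arms were less alike, with 8 differences between miR-200c-5p and miR-200b-5p, 1 of them in the seed (G2A).

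The name of a locus may not state which arm its reads came from. Of the 450 named loci in the table, 364 end in 5p and 11 in 3p, and each family hairpin had 1 locus, so no second arm was listed beside it. The values below are therefore given for the locus under its deposited name. The hairpins of the most abundant member of each cluster show both arms in capitals.
MIR200C hairpin: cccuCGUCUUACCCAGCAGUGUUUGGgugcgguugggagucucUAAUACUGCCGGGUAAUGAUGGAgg
MIR200B hairpin: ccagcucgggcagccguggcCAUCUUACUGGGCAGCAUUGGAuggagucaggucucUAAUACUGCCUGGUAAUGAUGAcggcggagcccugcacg

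The table gives chromosomes but no coordinates, so positions are from GENCODE 29 (GRCh38) by gene name. MIR200C lies at chr12:6963699-6963766 and MIR141 at chr12:6964097-6964191, both on the plus strand in an intron of the long non-coding RNA gene MIR200CHG, with 330 bases between them. MIR200B lies at chr1:1167104-1167198, MIR200A at chr1:1167863-1167952 and MIR429 at chr1:1169005-1169087, all on the plus strand and in no other gene of that annotation. The gaps between the 3 are 664 and 1052 bases.

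The libraries differed greatly in depth. The withaferin A libraries held 340 to 430 counts each (1188 together) and the untreated libraries 1855838 to 2615684. In a withaferin A library 1 count was worth 2326 to 2941 CPM (the share of the library total, scaled so that each library has the same sum). Over the 3 withaferin A libraries together, a locus with 0 of 1188 counts could still hold up to 0.253% of counts, or 2525 CPM (3 counts, called the floor below). Floors and intervals cover counting error only. As a check of the cell type, 4 epithelial miRNAs fixed as markers (miR-205, miR-203a, miR-200c and miR-141) together took 28.8% to 37.2% of counts in withaferin A libraries and 6.91% to 7.77% in untreated libraries. All 395 of those withaferin A counts were miR-205-5p, and miR-203a, miR-200c and miR-141 had 0 counts after withaferin A. Markers of blood cells, of mesenchymal and stromal cells and of liver and muscle each had 0 counts after withaferin A and at most 0.0111% of counts in any untreated library. Shares that low lie under the floor, so their 0 counts are no check of the cell type in withaferin A libraries. No locus of the table was named miR-451a, miR-214, miR-133a or miR-206.

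In untreated MCF10A cells the family's counts were almost wholly those of miR-200c. These are shares of counts by locus, with the counted arm not settled, and not amounts of each miRNA in the cells. hsa-miR-200c-5p, the leading member, had 17006, 19059 and 8461 counts in the untreated libraries, which were 6614, 7286 and 4559 CPM (mean 6153 ± 1421, SD, n = 3). It was the 27th most abundant of the 947 loci. hsa-miR-141-5p, which is made from the same primary transcript, had 321, 210 and 411 counts, or 125, 80.3 and 221 CPM (mean 142 ± 72.2). Over the 3 libraries the family took 0.658% ± 0.133 of untreated counts, and miR-200c-5p made up 93.1% ± 3.01 of the family.

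On chromosome 1 the leading member was miR-200b-5p, with 694, 648 and 520 untreated counts, or 270 CPM, 248 CPM and 280 CPM (mean 266 ± 16.6, SD, n = 3). miR-200a-5p, which shares the miR-141 seed in its 3p arm, had 49, 22 and 30 counts (mean 14.5 CPM ± 5.51). miR-429, the last hairpin of the cluster, had 19, 5 and 6 counts (mean 4.18 CPM ± 2.86), and its share of counts in replicate 2 had a 95% Wilson interval of 8.16e-05% to 0.000448%. By mean CPM the order was miR-200c-5p, miR-200b-5p, miR-141-5p, miR-200a-5p and miR-429. Every untreated library kept miR-200c-5p above the other 4, whereas miR-141-5p ran from 0.324 to 0.790 of miR-200b-5p. No untreated value of miR-200a-5p overlapped those of miR-429, and the lowest of miR-200a-5p (8.41 CPM) stood close to the highest of miR-429 (7.39 CPM).

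**Figure D1:**
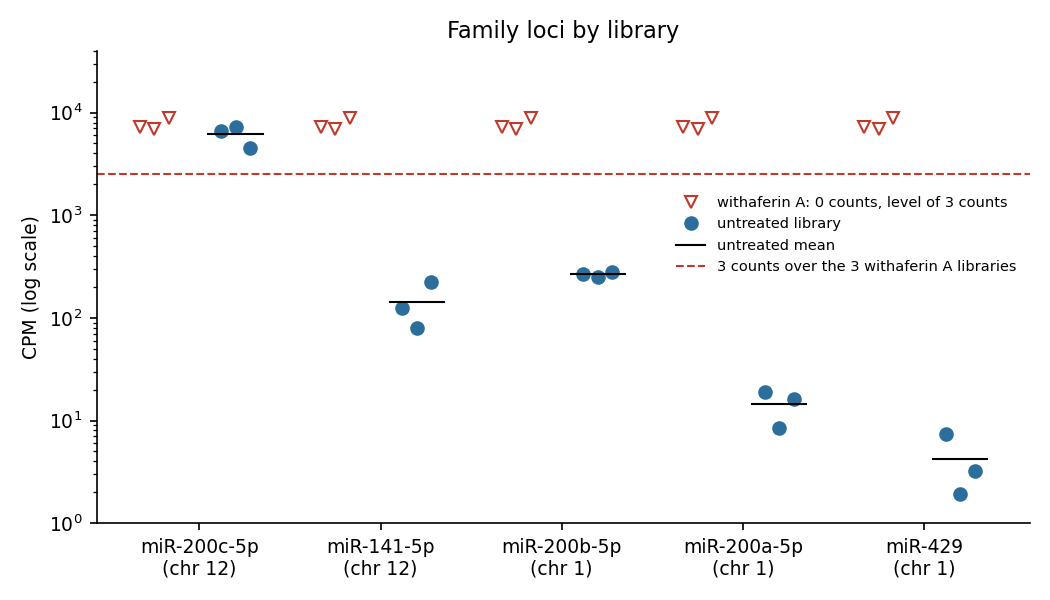
CPM (log scale) of the 5 family loci in each library. Filled circles are untreated libraries with their mean as a bar, and open triangles mark the level that 3 counts would have in each withaferin A library, all of which held 0 family counts. The dashed line is the floor of 2525 CPM over the 3 withaferin A libraries, and miR-200c-5p alone has its untreated mean above it.

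The chromosome 12 cluster had more counts than the chromosome 1 cluster in every untreated library. The chromosome 12 loci summed to 17327, 19269 and 8872 counts, and the chromosome 1 loci to 762, 675 and 556. The ratio was 22.7, 28.5 and 16.0 in the 3 libraries (mean 22.4 ± 6.30, SD, n = 3), higher than 1 in 3 of 3. The exact two-sided sign-flip permutation test of the log2 ratio (mean 4.45 ± 0.42) gave p = 0.25, the smallest that 3 libraries allow. The excess was that of 1 locus. Without miR-200c-5p the chromosome 12 cluster was left with miR-141-5p, at 0.491 ± 0.222 of the chromosome 1 sum (SD, n = 3).

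Read by seed in place of cluster, the family was also lopsided. Hairpins whose 3p arm carries AAUACUG (miR-200c, miR-200b and miR-429) had 17719, 19712 and 8987 counts, and those with AACACUG (miR-141 and miR-200a) had 370, 232 and 441, a ratio of 51.1 ± 32.4 (SD, n = 3). The AACACUG hairpins made up 2.63% ± 1.83 of the family. Most of the excess was again that of miR-200c-5p, which held 17006, 19059 and 8461 of the AAUACUG counts. miR-200b-5p had 694, 648 and 520 counts, which exceeded the AACACUG sum in each library by far less. The groups are of hairpins, and with the counted arm not settled these are not amounts of either 3p seed. In both clusters the AAUACUG hairpin at the 5′ end led its AACACUG neighbour, by 54.8-fold ± 35.1 for miR-200c-5p over miR-141-5p and by 20.3-fold ± 8.07 for miR-200b-5p over miR-200a-5p.

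The ratio within the chromosome 12 pair varied widely between libraries. The ratio of miR-200c-5p to miR-141-5p was 53.0, 90.8 and 20.6 in the untreated libraries, a 4.41-fold spread. Of 25 pairs of named miRNA loci with neighbouring numbers (at most 2 apart) on a chromosome, each locus at 50 counts or more in all 3 untreated libraries, this pair had the largest mean imbalance and the second largest spread. The medians over the 25 pairs were a 4.85-fold imbalance and a 1.71-fold spread. The spread of miR-16-5p with miR-15b-5p on chromosome 3 was larger (7.45-fold). Some loci in these pairs are copies with equal or nearly equal counts, so the pairs are not all independent. miR-16-5p, for instance, had 2402 CPM on chromosome 3 and 2423 CPM on chromosome 13.

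**Figure D2:**
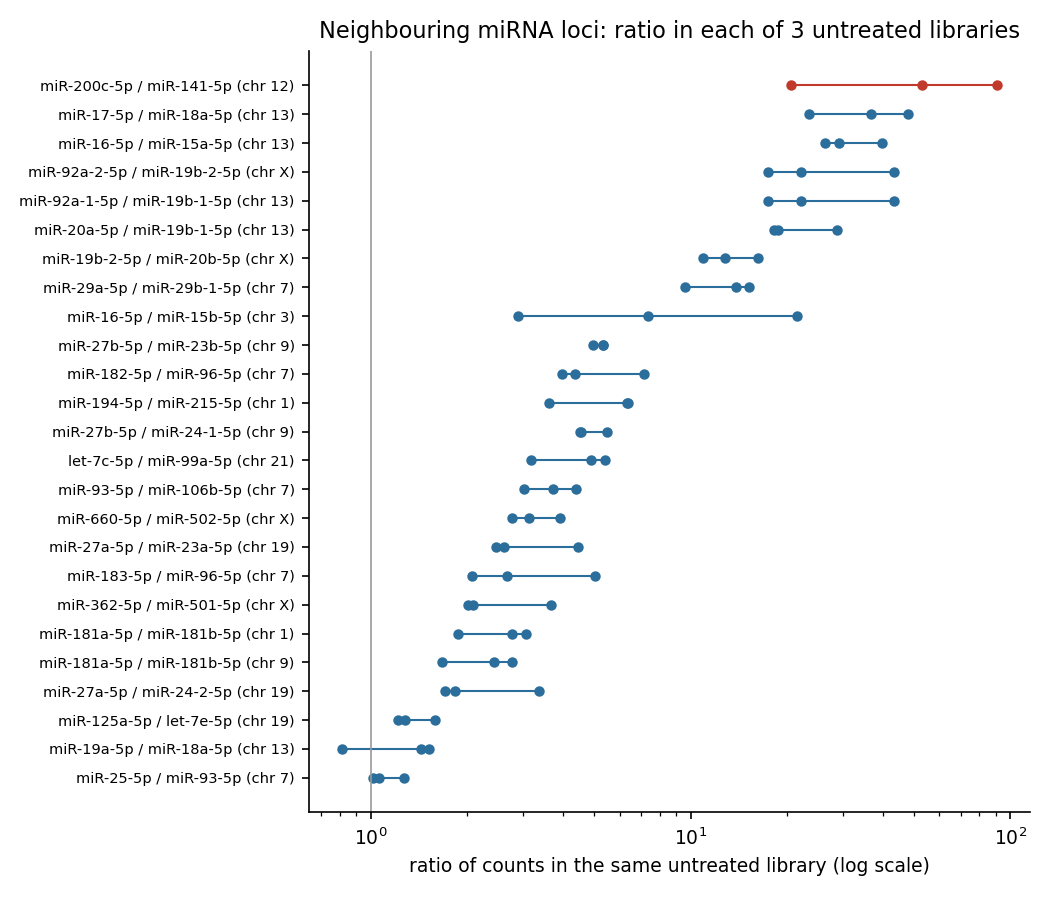
Ratio of counts of the more to the less abundant locus (log scale) in each untreated library, for 25 pairs of neighbouring miRNA loci ordered by mean imbalance. Points are libraries and lines join the lowest and highest. The red pair, miR-200c-5p over miR-141-5p, runs from 20.6 to 90.8 and has the largest mean of the 25.

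The members of the pair differed between libraries in opposite directions. In untreated replicate 3 miR-200c-5p was lowest (4559 CPM) and miR-141-5p highest (221 CPM), and in replicate 2 miR-200c-5p was highest (7286 CPM) and miR-141-5p lowest (80.3 CPM). The 95% Wilson intervals of the shares did not overlap between any of the libraries for either locus. For miR-141-5p they ran from 0.0112% to 0.0139%, from 0.00701% to 0.00919% and from 0.0201% to 0.0244% of counts. The highest value of miR-141-5p was 2.76 times its lowest, and 13 of the 237 loci at 50 counts or more in all 3 untreated libraries spread that far or further (median 1.44-fold). miR-200c-5p spread 1.60-fold and miR-200b-5p 1.13-fold, and the intervals of miR-200b-5p overlapped in all 3 libraries. Over the 237 loci, 24 lay more than 2-fold from the mean of the other libraries in replicate 2, 13 in replicate 3 and 0 in replicate 1. The part of these library differences in the miR-200c to miR-141 ratio was not tested.

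The loci most like each member over the 3 untreated libraries were found by the root mean square difference of log2(CPM + 1) among the 194 named loci at 50 counts or more in all of them. For miR-200c-5p the nearest were miR-222-5p (0.20), miR-26b-5p (0.36), miR-191-5p (0.36), let-7c-5p (0.52) and miR-151b (0.52). For miR-141-5p they were miR-18a-5p (0.16), a member of the miR-17/92 cluster, then miR-574-5p (0.30), miR-130a-5p (0.38), miR-194-5p (0.40) and miR-455-5p (0.42). The values of miR-18a-5p were 136, 91.0 and 250.02 CPM, lowest in replicate 2 and highest in replicate 3 as for miR-141-5p. For miR-200b-5p they were miR-146a-5p (0.12), miR-339-5p (0.19), miR-192-5p (0.21), miR-361-5p (0.30) and miR-365a-5p (0.38). miR-200a-5p (0.89 and more) and miR-429 (2.50 and more) had no close match in that set, since both lie below its minimum of 50 counts. Their nearest 5 were miR-508-5p, miR-4677-5p, miR-132-5p, miR-9-5p and miR-450a-5p.

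After withaferin A every family locus had 0 counts in all 3 libraries. The family's share was 0% of withaferin A counts (0 of 1188, which allows up to 0.253%) and 0.658% ± 0.133 of untreated counts (SD, n = 3), so it was at least 2.61-fold lower (at least 1.69-fold without withaferin A replicate 1 and 1.66-fold without replicate 2, which leave fewer counts). Each locus is counted as a share of what was sequenced, so fewer cells and less RNA per cell cannot be told apart. The groups did not overlap, but 261 of the 303 loci that edgeR tested had 0 counts after withaferin A. The exact two-sided permutation test of the family share gave p = 0.1, the smallest that 3 against 3 allows. At the untreated share, 7.82 family counts would have fallen in the 1188, and 7.31 of them would have been miR-200c-5p.

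miR-200c-5p had 0, 0 and 0 counts in withaferin A libraries, against 17006, 19059 and 8461 in untreated libraries. All withaferin A libraries lay below all untreated libraries, but 261 of the 303 loci tested, miR-200c-5p among them, had 0 counts after withaferin A. At its untreated share only 2.09 to 2.65 counts were expected in each withaferin A library. The share of miR-200c-5p was at least 2.44-fold lower. That bound rests on the summed withaferin A counts, and it was 1.58-fold without withaferin A replicate 1 and 1.55-fold without replicate 2. In edgeR miR-200c-5p was called lower (quasi-likelihood test, adjusted p = 0.0162). With 0 counts after withaferin A, it passed the filter on low counts through the untreated libraries only. All 24 loci above the floor in untreated cells with no withaferin A count, miR-200c-5p among them, were called lower. The call thus adds nothing to its untreated level and its 0 counts. In that test 51 of 303 loci were called lower, 16.8% of those tested, and of the 3 family loci tested 1 was called. The call was lost with library totals in place of TMM (trimmed mean of M values) scaling (edgeR adjusted p = 0.0739, 3.63% of loci called lower) and without withaferin A replicate 3 (edgeR adjusted p = 0.0756, 5.94% called lower), the library with the largest TMM factor, 3.32. Leaving out that library and recomputing the filter, a fit chosen after seeing the data, gave edgeR adjusted p = 0.00812. That filter kept 418 loci, of which 53 were called lower.

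miR-200b-5p (edgeR adjusted p = 0.538) and miR-141-5p (edgeR adjusted p = 0.792), also at 0 counts in each withaferin A library, did not pass. At the untreated shares 0.316 counts of miR-200b-5p and 0.169 of miR-141-5p were expected among the 1188. miR-200a-5p and miR-429, with 0.0173 and 0.00496 counts expected, did not pass the filter on low counts and were not tested. All 4 lay below the floor in untreated cells, so a fall of any size, including full loss, was not detectable at this depth. In the authors' normalized score the same limit shows: the untreated means were 7239 units for miR-200c-5p, 312 for miR-200b-5p, 165 for miR-141-5p, 17.0 for miR-200a-5p and 5.00 for miR-429, and 1 count in a withaferin A library was worth 698 to 780 units.

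Loci of the same untreated level behaved much as miR-200c-5p did. Of the 34 other loci with an untreated mean within 2-fold of it (3120 to 10862 CPM, copies of some miRNAs among them), 18 had no count after withaferin A, and 27 of the 34 (79.4%) were called lower in edgeR. All 18 loci with no count were among them. Near neighbours in level on either side were miR-151b (6906 CPM) and miR-222-5p (6119 CPM), both at 0 counts after withaferin A, while let-7c-5p (8700 CPM) had 97 counts where 10.3 were expected at its untreated share. miR-125a-5p (4249 CPM) had 14 counts where 5.05 were expected.

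**Figure D3:**
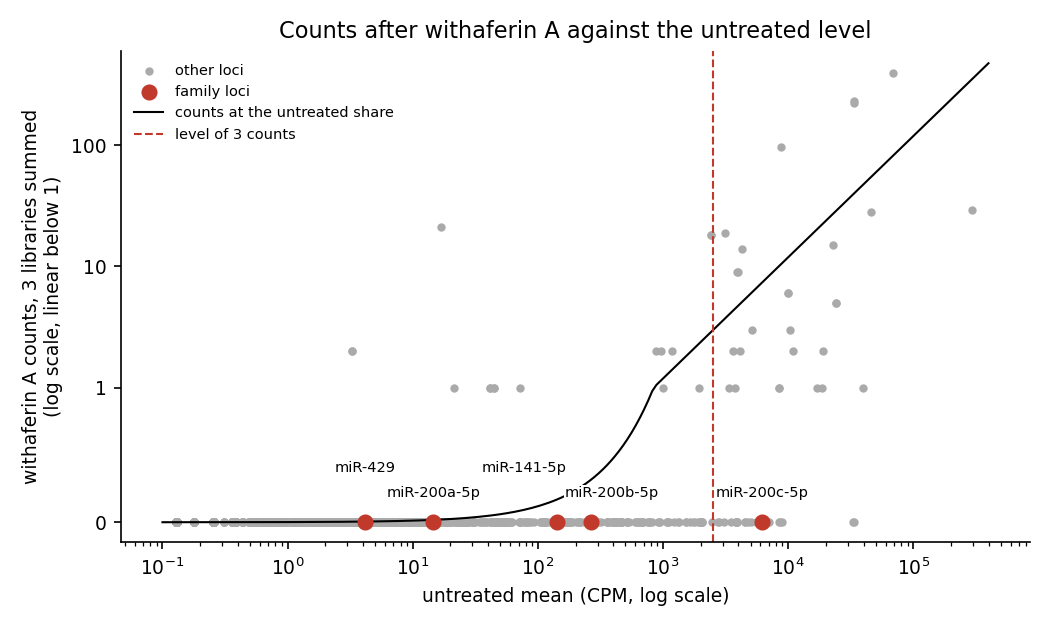
Withaferin A counts summed over 3 libraries (log scale, linear below 1) against the untreated mean in CPM (log scale), 1 point per locus. The line gives the counts expected at the untreated share and the dashed line the floor of 2525 CPM. All 5 family loci lie at 0 counts, and miR-200c-5p is the family locus to the right of the floor, among other loci at 0.

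A ratio of counts within a library does not depend on its scaling, and the ratio to miR-205-5p was lower after withaferin A, while that to miR-21-5p could not be resolved. miR-205 is known from basal and stratified epithelia and also represses ZEB1 and ZEB2. miR-205-5p had 137, 160 and 98 counts in withaferin A libraries, against 180728, 160976 and 134953 in untreated libraries. Its share was 4.88 times as high after withaferin A, without passing in edgeR (adjusted p = 0.161). miR-200c-5p made up 0% of the 2 loci's counts after withaferin A (0 of 395, exact 95% upper limit 0.930%) and 8.36% ± 2.35 in untreated libraries (SD, n = 3, lowest 5.90%). At the untreated ratio 36.2 counts of miR-200c-5p would have stood beside those 395. Part of that number comes from the higher share of miR-205-5p, since 7.31 counts were expected at the untreated share of miR-200c-5p. A locus of unchanged share would also have a lower ratio to miR-205-5p. How many other loci have a lower ratio to it was not tested, and the kit differed between the groups.

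miR-21-5p, often raised in carcinomas and in transition to a mesenchymal state, had 8, 10 and 11 counts after withaferin A, against 761740, 704504 and 586167 in untreated libraries. Beside those 29 counts 0.617 counts of miR-200c-5p were expected at the untreated ratio. The exact 95% upper limit of 11.9% for miR-200c-5p, as a share of both loci, lay above the untreated 2.08% ± 0.612 (SD, n = 3). A change of miR-200c-5p relative to miR-21-5p was not detectable at this depth.

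**Figure D4:**
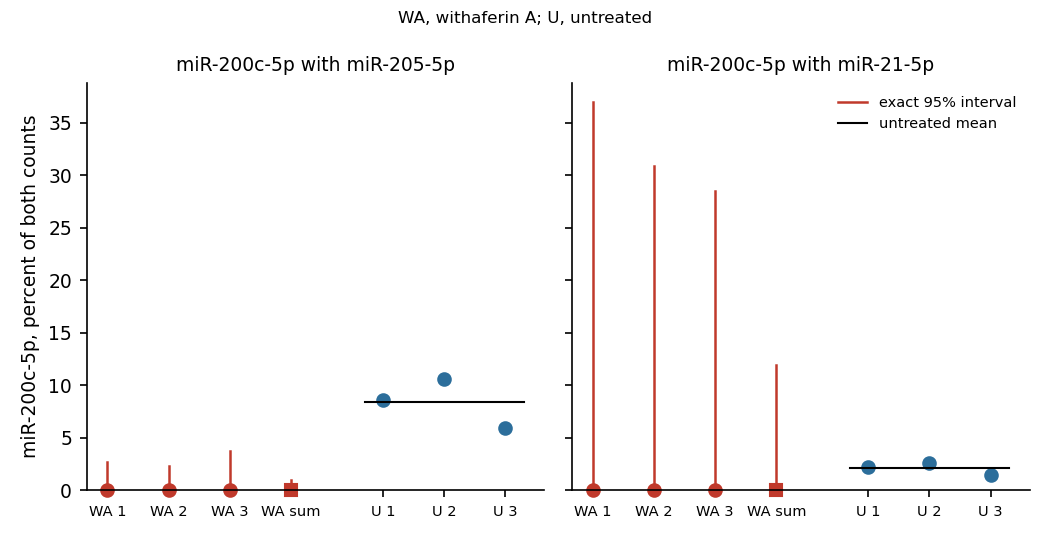
miR-200c-5p as a percent of its own counts plus those of miR-205-5p (left) or miR-21-5p (right). Red marks are the withaferin A libraries (WA 1 to 3) and their sum with exact 95% intervals, blue circles the untreated libraries (U 1 to 3) with their mean as a line. The summed interval ends at 0.930% against an untreated mean of 8.36% with miR-205-5p, and at 11.9% against 2.08% with miR-21-5p.

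Few of the other miRNAs linked to the epithelial state were measured well at this depth: 2 of their loci lay above the floor in untreated cells, and 5 of those tested had 0 counts after withaferin A. Of 10 hairpin names listed for it, 9 were in the table, at 10 loci, and 9 loci were tested. In edgeR 1 was called lower, beside 51 of 303 (16.8%) over all loci tested. None of the list was called higher (0.66% of all tested) and 8 did not pass. The called locus was miR-183-5p (edgeR adjusted p = 0.0204), of the cluster of miR-183, miR-96 and miR-182, with 0 counts after withaferin A and 2475 CPM in untreated cells, just under the floor, so no fold can be given. miR-182-5p of the same cluster had 2 counts where 4.88 were expected and did not pass (edgeR adjusted p = 0.0727). miR-96-5p, its neighbour, had 2 counts where 1.04 were expected. miR-34a-5p, a p53-responsive miRNA that represses SNAI1, also had 2, where 1.39 were expected. miR-192-5p at 2 loci, miR-203a-5p, miR-215-5p and miR-375-5p had 0 counts after withaferin A and untreated means of 9.72 to 609 CPM, below the floor. With library totals, or without withaferin A replicate 3, miR-183-5p was not called and miR-205-5p was called higher (edgeR adjusted p = 0.000344 and 0.00563). Without untreated replicate 3 miR-205-5p was called higher too (edgeR adjusted p = 0.0351), beside miR-183-5p lower. The replicate block left 0 loci of the list called. The summed share of the list was 33.4% ± 4.13 after withaferin A and 7.76% ± 0.771 in untreated libraries (SD, n = 3), nearly all of it miR-205-5p (395 of 401 counts).

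Of 14 hairpin names linked to mesenchymal cells or to the transition, 13 were in the table, at 18 loci, some of them copies that share reads. In edgeR 5 of 15 loci tested were called lower and 0 higher, beside 51 of 303 (16.8%) lower over all loci tested. They were miR-21-5p (log2 fold change −4.71 ± 0.54, SE, edgeR adjusted p = 0.00188), miR-221-5p (−3.95 ± 0.75, edgeR adjusted p = 0.0127), miR-222-5p (0 counts, at least 2.42-fold lower, 1.57-fold without withaferin A replicate 1 and 1.55-fold without replicate 2, edgeR adjusted p = 0.0192) and miR-103a, known to repress Dicer, at 2 copies with equal counts (−4.61 ± 0.70, edgeR adjusted p = 0.00474). They were all 5 of the list's loci above the floor, where 42 of all 52 loci (80.8%) were called lower. With library totals 1 was called (miR-21-5p), and without withaferin A replicate 3 it was 3 (miR-21-5p and both miR-103a copies). Of the rest, miR-31-5p had 2 counts after withaferin A, and miR-107, miR-9-5p, miR-143-5p, miR-199a-5p, miR-199b-5p, miR-10b-5p, miR-145-5p and miR-155-5p had 0 and untreated means of at most 682 CPM. The summed share was 3.02% ± 1.00 after withaferin A and 32.9% ± 1.77 in untreated libraries (SD, n = 3), most of it miR-21-5p. Median fitted log2 fold changes were −11.28 for the 3 tested family loci, −8.15 for the epithelial list and −6.98 for the mesenchymal list, beside −8.94 for all 303 loci tested, 261 of which had 0 counts after withaferin A. With such loci set at their floor and the rest at their fitted change, the medians were 3.25, 1.44 and 5.71, beside 4.07 for all. The 1.44 is the fitted change of miR-205-5p, not a floor. The counts bound no fall of the median locus in any of these sets.

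The promoters of the host transcripts are shown because each cluster is made from 1 primary transcript and because ZEB factors are known to bind E-boxes of the form CACCTG there. The windows run from 250 bases before to 50 after the RefSeq start (GRCh38.p14, plus strand), with CACCTG in capitals. Its reverse complement CAGGTG was also searched.
MIR200CHG, chr12:6962995-6963294: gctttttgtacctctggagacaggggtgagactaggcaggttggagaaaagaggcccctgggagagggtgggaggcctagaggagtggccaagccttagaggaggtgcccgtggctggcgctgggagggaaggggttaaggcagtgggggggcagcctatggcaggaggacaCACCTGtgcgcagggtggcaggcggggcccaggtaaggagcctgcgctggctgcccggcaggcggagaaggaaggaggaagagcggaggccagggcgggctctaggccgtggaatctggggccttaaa
MIR200BHG, chr1:1162627-1162926: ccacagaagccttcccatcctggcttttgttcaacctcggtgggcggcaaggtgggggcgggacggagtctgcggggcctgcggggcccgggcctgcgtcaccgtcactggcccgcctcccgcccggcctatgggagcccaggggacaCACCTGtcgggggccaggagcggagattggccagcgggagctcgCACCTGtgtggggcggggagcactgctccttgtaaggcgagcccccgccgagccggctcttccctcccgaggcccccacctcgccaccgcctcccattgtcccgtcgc

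The MIR200CHG window held 1 match and the MIR200BHG window 2. Of the 35116 promoter windows of that length in the RefSeq table, 20.6% held at least 1 match on either strand and 3.49% at least 2. The chromosome 1 window, with more matches, belongs to the cluster with 22.4-fold fewer counts, and with only 2 clusters no relation between matches and counts can be tested. The first hairpin begins 454 bases after the start site for MIR200C and 4227 bases after it for MIR200B.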

How the data were processed

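Per the labels, small RNA was sequenced from untreated and withaferin A-treated MCF10A cells. The deposited count table holds whole read counts for 947 loci. The submitters' processing notes name cutadapt, Trim Galore and edgeR, without versions, and the build GRCh38.p7. The aligner, the locus and counting rules and any use of molecular identifiers are not given in the sources used here. The authors' normalized score, deposited for 660 of the loci, is the count times 1 factor per library. Column names match the sample names listed in each record. No libraries were identical, chi-square per degree of freedom was 1.26 to 1.58 between withaferin A libraries and 62.7 to 201 between untreated libraries, and all 6 were kept.

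All loci were tested in edgeR 4.0.16 under R 4.3.3, by its quasi-likelihood test with TMM factors and no covariates, after filterByExpr (minimum count 10), and called at a Benjamini-Hochberg p under 0.05. The fit was run on simulated counts, and recovery of the set changes was required only at the totals of the untreated libraries. That does not check the fit at the depth of the withaferin A libraries. An SE given with a log2 fold change is that change divided by the square root of F. Alternatives used library totals, RLE factors, no filter, DESeq2 1.42.0, limma 3.58.1 on log2(score + 1 or 1000), a replicate block and leaving out each library. Floors are 3 counts over the withaferin A group. Single values were tested by exact permutation in scipy 1.17.1. All family loci, both lists and the 5 loci nearest each member were named by rule, and the loci in the 2-fold level window and the ratios to miR-205-5p and miR-21-5p were chosen after their values were seen. The members and lists were chosen with earlier results of these data known.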

Additional observations from a re-analysis of the deposited data

How the results depend on the processing

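The lower call of miR-200c-5p held in 14 of 16 alternatives (lowest adjusted p = 1.73e-07, highest 0.0756). The 14 include the limma fits, where most loci passed. They also include fits leaving out a withaferin A library with the filter recomputed, which were chosen after seeing the data. Library totals ended the call (edgeR adjusted p = 0.0739), and over fits leaving out 1 library edgeR adjusted p ran from 1.40e-06 to 0.0756. Fits leaving out an untreated library with the filter recomputed, also chosen after seeing the data, kept 10 to 12 loci. None of the family was kept, so these fits are not among the 16. In limma on the authors' score miR-141-5p (adjusted p = 1.56e-05 with 1 added, 0.00995 with 1000 added) and miR-200b-5p (2.95e-08 and 1.11e-05) also passed, where 631 and 610 of 660 loci were called.

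The 53 called loci were 17 with library totals (6 higher, 11 lower) and 25 with a replicate block (1 higher, 24 lower). Leaving out 1 library gave 24 to 68, the 24 without withaferin A replicate 3 (6 higher, 18 lower), and 6 to 59 with the filter recomputed (6, 6 and 9 without an untreated library). In the epithelial list 1 locus was called, and 2 with RLE factors, 2 in DESeq2, 6 and 7 in limma with 1 and 1000 added, 0 with the replicate block and 1 to 2 without 1 library. With library totals or without withaferin A replicate 3 the 1 called was higher, not lower. Without untreated replicate 3, 1 of the 2 called was higher. In the mesenchymal list 5 were called, against 1 with library totals, 14 and 15 in limma, and 3 to 5 without 1 library (3 without withaferin A replicate 3). The cause of these differences was not tested.

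Numbers in the column names are not stated to pair the libraries, and deviations of same-numbered libraries correlated at 0.05, −0.00 and 0.07. With the replicate block miR-200c-5p still passed (edgeR adjusted p = 0.0221). The cluster ratio was 19.3 to 25.6 without 1 library, and the ratio of miR-200c-5p to miR-141-5p was 36.8 to 71.9. Both exceed 1 in every untreated library, so leaving 1 out could not reverse them. The authors' score, with 1 factor per library, could not change them beyond rounding. The family share could not reverse either, with 0 family counts in every withaferin A library. At this depth 4 of 5 family loci lie below the floor. Bounds on folds without 1 library were chosen after seeing the data.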
